A study of Mus musculus with 16 samples.

Results

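Pdk4, Pdk2, Angptl4, Angptl8, Igfbp1 and Txnip are liver genes whose RNA levels respond to fasting and feeding, and they are described here across diet and sex. They were selected on their symbols, as 6 of 51487 genes with a symbol among 78317 listed, and all 6 passed the filter on low counts that left 14781 genes for testing. The list was drawn up with results of these data in view and the values that led to it are not recorded, so every difference below describes these libraries, and its adjusted p-value is not independent evidence.

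The RNA came from whole livers of mice of the inbred strain C57BL/6J, with the genotype given as wt, which arrived at 6 weeks of age. For 10 weeks they ate either a LabDiet chow, the normal diet, in which fat gave 4.5% of the calories, or the high fat diet D12492 of Research Diets, in which it gave 60%. The 4 groups of 4 libraries were females on normal diet, females on high fat diet, males on normal diet and males on high fat diet. All mice were housed in groups with free access to food and water on 12 h of light and 12 h of dark, and all libraries carry the same batch number. The 2 diets are different products, so fat content cannot be told apart from the other ingredients. The hour of collection, and whether food was withdrawn before it, are not given in the sources used here. No label says that each library came from a mouse of its own, so the p-values measure the spread between libraries, which may be in part technical.

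In the fasted liver, insulin is low and glucagon and fatty acids are high. The transcription factors FoxO1 and PPARα then raise genes that spare glucose and burn fat, and feeding reverses this through insulin and through glucose-sensing factors such as ChREBP. Pdk4 and Pdk2 encode kinases that switch off the pyruvate dehydrogenase complex and so hold back glucose oxidation. Angptl4 and Angptl8 encode secreted proteins that restrain lipoprotein lipase, Angptl4 mainly in fasting and Angptl8 after feeding. Igfbp1 encodes a secreted binding protein of insulin-like growth factors that insulin represses, and Txnip encodes a binding partner of thioredoxin that limits glucose uptake.

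Library totals ran from 22228115 to 41420589 expected counts. Each level below is given as CPM, a count relative to the size of its library, with library sizes scaled by TMM (edgeR's trimmed mean of M-values, which centres the bulk of the genes), unless TPM (a length-corrected share of transcripts) is named. TPM was used to compare genes with each other. The libraries were liver by their markers: the 7 hepatocyte markers found, of 8 listed, summed to between 46707 and 86985 TPM per library, while 3 of 5 skeletal muscle markers were at 0 in all 16. In bulk tissue, fewer cells of a type and less RNA per cell cannot be told apart. One library stood apart for these genes. Female normal diet replicate 1 had the lowest Pdk4, Angptl4, Igfbp1 and Txnip of its group and the highest Angptl8 and Pdk2. Over all genes its root mean square deviation from the group mean was 0.347 on the log2 scale, against a range of 0.316 to 0.470 over the 16 libraries. Within its own group replicate 1 was the furthest out, with replicates 2 to 4 at 0.316, 0.331 and 0.318.

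**Figure D1:**
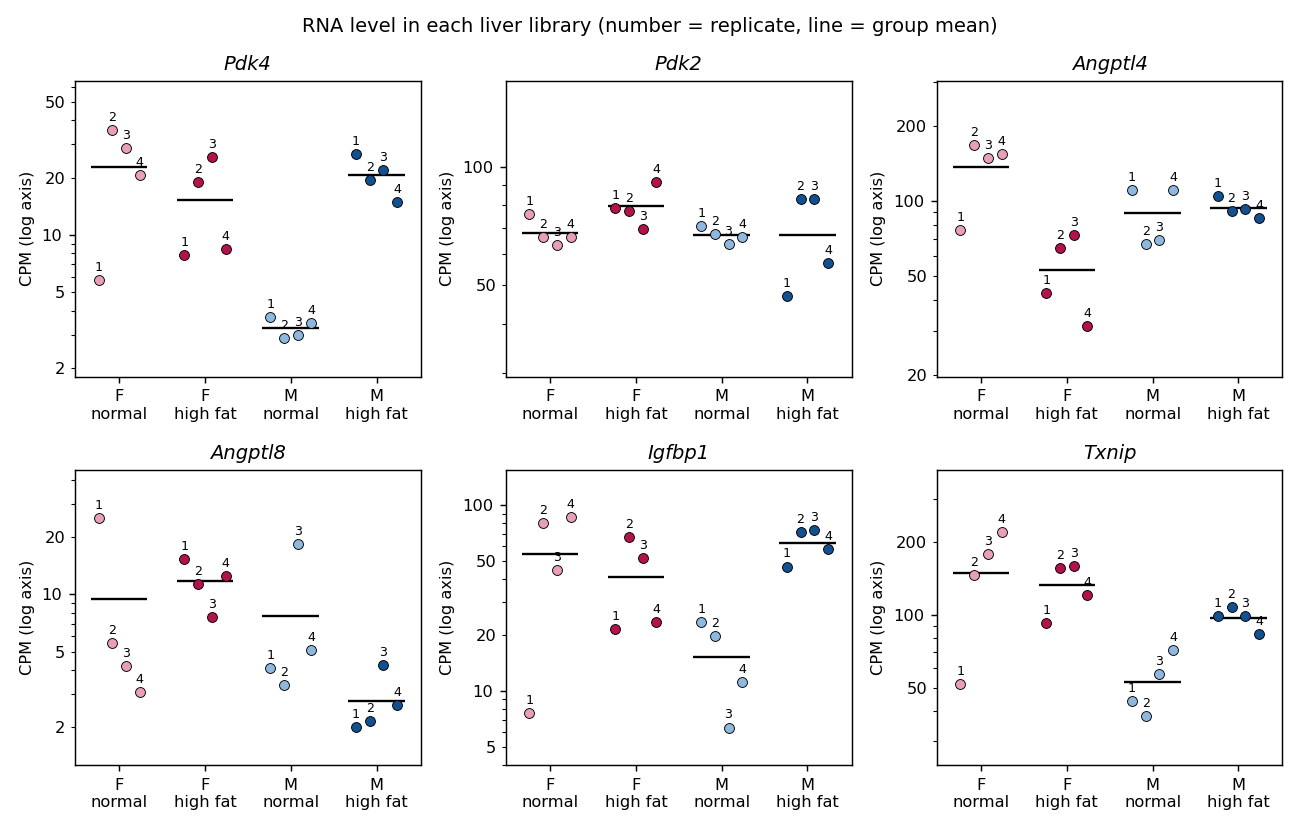
CPM (log axis) of each gene in each of the 16 liver libraries, with points numbered by replicate and a line at the mean of each group of 4. Pdk4 lay between 2.88 and 3.71 in males on normal diet and between 14.8 and 26.6 in males on high fat diet, and Angptl4 in females lay between 76.1 and 168 on normal diet and between 31.4 and 72.9 on high fat diet.

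Per length, the most abundant of the 6 RNAs over all 16 libraries was Txnip, at 51.3 ± 25.8 TPM (mean ± SD, n = 16). Pdk2 followed at 43.0 ± 9.05 TPM, Igfbp1 at 42.1 ± 26.1 TPM and Angptl4 at 35.8 ± 13.6 TPM. Each of these 4 lay within 1 SD of the next in this order. Angptl8 averaged 16.9 ± 14.2 TPM, and Pdk4 was lowest at 5.75 ± 3.87 TPM. Pdk4 stayed under Pdk2 in every library, since its highest value was 11.8 TPM and the lowest Pdk2 value was 28.3 TPM. The order differed by group: Txnip led in females on both diets (67.2 and 69.4 TPM), Pdk2 in males on normal diet (38.4 TPM, with Txnip at 23.3) and Igfbp1 in males on high fat (59.9 TPM, with Txnip at 45.3).

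The first comparison asked how the high fat diet differed from the normal diet within males. Of the 6 genes, 1 was called by edgeR's quasi-likelihood test (Benjamini-Hochberg adjusted p under 0.05 over all genes), against 11.4% of all genes tested (6.03% higher and 5.36% lower). That gene was Pdk4, which rose on the high fat diet. Igfbp1 and Txnip were also higher in every male library on the high fat diet than in any on the normal diet, but their adjusted p-values missed the threshold. The groups of 3 of the 6 genes thus did not overlap, as for 18.5% of all genes. At an unadjusted p under 0.05 the count was 3 of 6, against 27.5% of all genes, and DESeq2 called 3, against 15.2%. All members' counts in this and the following comparisons are descriptions, for the reason given at the start.

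Pdk4 (ENSMUSG00000019577.7) is the kinase isoform of the complex best known for its induction by fasting and fatty acids. In males on normal diet it stood at 3.71, 2.88, 2.98 and 3.44 CPM in replicates 1 to 4. On high fat it stood at 26.6, 19.4, 21.8 and 14.8 CPM. The groups did not overlap, and the lowest library on high fat was several times the highest on normal diet. The difference was 6.36-fold, or 2.67 ± 0.52 as a log2 fold change with its SE (adjusted p 0.00548 by edgeR). Leaving out any 1 library kept the call, with log2 fold changes from 2.52 to 2.80. In females on normal diet Pdk4 stood at 5.78, 35.7, 28.7 and 20.6 CPM, and on high fat at 7.82, 19.0, 25.7 and 8.40 CPM. The female groups overlapped over most of their range. Their log2 fold change was -0.58 ± 0.47 (95% interval -1.60 to 0.44, adjusted p 0.459), an interval that spans 0. The male normal diet group was the low one of the 4: its mean of 3.25 ± 0.387 CPM compares with 22.7 ± 12.8 in females on normal diet, 15.2 ± 8.64 in females on high fat and 20.7 ± 4.93 in males on high fat (mean ± SD, n = 4 each).

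The promoter windows of the 3 genes that were higher in every male library on high fat are shown because these genes moved in the same direction and are known targets of insulin, FoxO or glucose signalling. Each runs 5′ to 3′ on the gene's own strand from 250 bases before to 50 bases after a RefSeq start site (build GRCm38.p6, while the expression files use GRCm39), with motif matches in capitals. Pdk4 lies at chr6:5496229-5496528 on the minus strand, Igfbp1 at chr11:7197537-7197836 on the plus strand and Txnip at chr3:96557707-96558006 on the plus strand.
Pdk4: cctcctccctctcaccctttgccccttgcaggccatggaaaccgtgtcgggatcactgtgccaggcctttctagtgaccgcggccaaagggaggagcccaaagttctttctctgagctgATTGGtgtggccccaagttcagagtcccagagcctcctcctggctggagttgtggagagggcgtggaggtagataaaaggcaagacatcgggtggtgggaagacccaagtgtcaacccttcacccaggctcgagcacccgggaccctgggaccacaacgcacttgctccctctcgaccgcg
Igfbp1: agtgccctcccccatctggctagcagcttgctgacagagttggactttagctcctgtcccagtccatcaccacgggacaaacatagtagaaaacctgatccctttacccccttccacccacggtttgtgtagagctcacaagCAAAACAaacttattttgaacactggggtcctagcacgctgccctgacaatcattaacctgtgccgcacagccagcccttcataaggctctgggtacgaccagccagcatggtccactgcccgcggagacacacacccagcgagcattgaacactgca
Txnip: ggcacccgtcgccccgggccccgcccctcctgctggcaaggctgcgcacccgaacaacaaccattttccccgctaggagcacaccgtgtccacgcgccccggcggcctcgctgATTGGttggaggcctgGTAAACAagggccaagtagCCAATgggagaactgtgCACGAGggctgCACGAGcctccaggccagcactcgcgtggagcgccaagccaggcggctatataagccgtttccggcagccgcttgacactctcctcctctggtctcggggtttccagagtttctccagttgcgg
Motifs were searched on both strands in all 32851 windows of 300 bases. The FoxO core GTAAACA is in 3.65% of windows, the insulin response core CAAAACA in 6.28%, the nuclear receptor site AGGTCA in 16.3% and the E box CACGTG in 7.15%. The CCAAT box, searched as ATTGG, is in 37.4%, TATAAA in 13.6% and CACGAG, part of the carbohydrate response element, in 6.47%. Pdk4 matched ATTGG alone, 131 bases before the start site. Igfbp1 matched CAAAACA alone, 108 bases before it. Txnip matched GTAAACA 121 bases before the start site, ATTGG 137 bases before it, its reverse CCAAT 102 bases before it, and CACGAG 85 and 74 bases before it. No 2 of these matches overlap. A match describes the letters of the window and is not evidence of binding. Of the 6 genes, 5 had a window in the table. The Angptl8 window (chr9:21835260-21835559) held none of the 7 motifs. Of the windows of Pdk2, chr11:95041322-95041621 held CACGTG and ATTGG, and chr11:95040826-95041125 held none.

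Igfbp1 (ENSMUSG00000020429.8) is among the RNAs that insulin lowers fastest in liver. In males on normal diet it stood at 23.6, 19.7, 6.35 and 11.2 CPM, and on high fat at 46.8, 71.4, 73.2 and 58.3 CPM. The 2 male groups did not overlap. Their log2 fold change was 2.04 ± 0.64, or 4.10-fold, with an adjusted p of 0.0582, over the threshold. DESeq2 on the same counts gave 2.03 with an adjusted p of 0.0106, so the call depended on the test. In females on normal diet Igfbp1 stood at 7.64, 80.2, 44.9 and 86.3 CPM, and on high fat at 21.6, 67.7, 51.9 and 23.6 CPM. Replicate 1 on normal diet was the lowest female library, and the groups overlapped. The female log2 fold change was -0.41 ± 0.61 (95% interval -1.74 to 0.92, adjusted p 0.707), and it turned to 0.11 and 0.14 on log2(TPM + 1) and log2(TPM + 0.1).

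Txnip (ENSMUSG00000038393.15), which ChREBP raises when glucose is plentiful, stood at 44.2, 38.2, 57.0 and 71.5 CPM in males on normal diet. On high fat the male values were 98.4, 108, 98.6 and 83.3 CPM. All 4 high fat libraries lay above all 4 on normal diet. The log2 fold change of 0.88 ± 0.33, or 1.84-fold, had an adjusted p of 0.104. In females Txnip stood at 51.6, 146, 178 and 220 CPM on normal diet and at 92.2, 156, 159 and 120 CPM on high fat. These groups overlapped, and replicate 1 on normal diet was again the lowest. Their log2 fold change was -0.17 ± 0.33 (95% interval -0.89 to 0.55, adjusted p 0.775). It turned to 0.0062 on library totals, 0.21 on log2(TPM + 1), 0.22 on log2(TPM + 0.1) and 0.076 without female normal diet replicate 4, so no direction is given. In the GENCODE M21 annotation (an earlier build than the files') exons of Txnip overlap those of Gm15441 on the other strand. Whether the counting used strand is not given in the sources used here, so reads of the overlap could be split between them. Gm15441 was scarce, at 0.121 to 4.76 CPM, and its diet difference was not called in either sex (adjusted p 0.821 in males and 0.992 in females).

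In the male libraries, a list of adipocyte markers moved with diet as well. Its 6 genes summed to between 5.88 and 10.85 TPM on normal diet and between 11.68 and 62.94 TPM on high fat. Most of this came from Cidec (10.4 to 42.2 TPM on high fat), a lipid droplet gene that fatty hepatocytes also express, and from Cfd (0.740 to 20.1 TPM). Adipoq, which defines adipocytes, reached at most 1.77 TPM in any library and Lep at most 0.0900 TPM. The summed hepatocyte markers were 61756 to 71697 TPM in males on normal diet and 46707 to 60248 TPM on high fat. Most of this was Alb (40923 to 48749 and 25496 to 39208 TPM). Cps1 was also lower without overlap, while the ranges of Apoa1, Ttr, Apob, Serpina1c and Hnf4a overlapped. The summed stellate cell markers did not overlap either. These 4 ran from 122 to 140 TPM on normal diet and from 149 to 187 TPM on high fat. Most of that sum was Dcn (114 to 132 and 139 to 175 TPM), and the ranges of Reln and Des overlapped. The 5 pancreatic acinar markers summed to at most 0.770 TPM on normal diet and ran from 0.620 to 32.9 TPM on high fat. The part of these shifts in the male differences of Pdk4, Igfbp1 and Txnip was not tested.

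The second comparison was the same diet contrast within females. Of the 6 genes, 1 was called, against 11.5% of all genes tested (5.74% higher and 5.76% lower). That gene was Angptl4, which fell on the high fat diet. Angptl4 was also the 1 gene of the 6 with an unadjusted p under 0.05 (27.2% of all genes), the 1 that DESeq2 called (15.7%) and the 1 whose groups did not overlap (18.3%). Scaling matters to this comparison: on library totals without TMM the median log2 fold change of all genes was 0.19 in place of 0.00, and the calls over all genes split into 2318 higher and 372 lower, in place of 848 and 852. For males that median was 0.10 and the split 1358 higher and 472 lower, in place of 891 and 793.

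Angptl4 (ENSMUSG00000002289.17) is a PPARα target that inhibits lipoprotein lipase outside the liver. In females on normal diet it stood at 76.1, 168, 148 and 153 CPM. On high fat it stood at 42.4, 64.6, 72.9 and 31.4 CPM. The female groups did not overlap, although replicate 1 on normal diet came close to the highest library on high fat. Angptl4 was 2.58-fold lower on high fat, or -1.37 ± 0.28 on the log2 scale (adjusted p 0.00578). The call held without any 1 library, with values from -1.55 to -1.18, and on library totals the value was -1.19 against the shifted median of 0.19. In males Angptl4 stood at 111, 66.8, 69.4 and 110 CPM on normal diet and at 104, 90.9, 92.3 and 85.3 CPM on high fat. The high fat libraries fell inside the range of the normal diet libraries. The male log2 fold change was 0.06 ± 0.27 (95% interval -0.53 to 0.65, adjusted p 0.914). Among females, the summed markers of 3 of the 9 cell types listed did not overlap between diets. Kupffer cell markers summed to 135 to 186 TPM on normal diet and 250 to 377 TPM on high fat, sinusoidal endothelial markers to 56.7 to 64.6 and 66.4 to 75.4 TPM, and T and B cell markers to 1.27 to 1.82 and 1.89 to 4.30 TPM. Of the Kupffer cell markers, Clec4f, Cd5l and Adgre1 each separated the diets, while Vsig4 overlapped. The endothelial sum was mostly Clec4g (44.82 to 48.36 and 52.9 to 56.35 TPM), and Stab2, Lyve1 and Ptprb overlapped. No single T and B cell marker separated the diets, and 3 of the 4 were under 1 TPM in all libraries. The hepatocyte sums overlapped between diets, but 2 hepatocyte markers separated them in opposite directions. Hnf4a was lower on high fat (146 to 164 and 103 to 137 TPM). Ttr was higher (4280 to 4619 and 5030 to 5819 TPM), and the other hepatocyte markers overlapped. The part of these sums and markers in the Angptl4 difference was not tested.

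Angptl8 (ENSMUSG00000047822.9), also called betatrophin, is known for its induction in liver by feeding and insulin. In females it stood at 25.2, 5.52, 4.17 and 3.06 CPM on normal diet and at 15.4, 11.3, 7.59 and 12.6 CPM on high fat. In males it stood at 4.08, 3.31, 18.4 and 5.09 CPM on normal diet and at 2.01, 2.14, 4.23 and 2.61 CPM on high fat. One library in each normal diet group, female replicate 1 and male replicate 3, was several times the other 3. The log2 fold change was 0.32 ± 0.67 in females (adjusted p 0.801) and -1.47 ± 0.72 in males (adjusted p 0.210), and neither was called. Each value leaned on 1 library: without female normal diet replicate 1 the female value was 1.49 (adjusted p 0.113), and without male normal diet replicate 3 the male value was -0.60 (adjusted p 0.623). Angptl8 lies within Dock6 on the other strand, with no shared exon, and Dock6 stood at 3.14 to 6.34 CPM. Per length, Angptl4 exceeded Angptl8 in 3 of 4 female and 3 of 4 male libraries on normal diet. The exceptions were the libraries with high Angptl8, where the TPM ratio of Angptl4 to Angptl8 was 0.559 and 0.710. On high fat the ratio ran from 0.474 to 1.78 in females and from 4.03 to 9.70 in males.

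Pdk2 (ENSMUSG00000038967.14) is the kinase isoform that liver expresses widely whether fed or fasted. It stood at 75.7, 66.4, 63.2 and 66.2 CPM in females on normal diet and at 78.7, 77.4, 69.4 and 91.7 CPM on high fat. In males it stood at 70.9, 67.6, 63.6 and 66.5 CPM on normal diet and at 46.9, 82.6, 82.6 and 56.9 CPM on high fat. The groups overlapped in every comparison. The log2 fold change was 0.23 ± 0.15 in females (95% interval -0.10 to 0.55, adjusted p 0.345) and 0.00 ± 0.15 in males (95% interval -0.32 to 0.33, adjusted p 0.992). Males on high fat were the most spread group, with replicates 1 and 4 low and replicates 2 and 3 high. The same libraries differed in the albumin RNA share of the library: 3.73% and 4.01% in replicates 1 and 4, and 5.91% and 5.84% in replicates 2 and 3. The part of that in the Pdk2 spread was not tested.

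Within the kinase family, the makeup of the summed TPM of Pdk1, Pdk2, Pdk3 and Pdk4 differed by group. Pdk4 made up 1.99% ± 0.0578 of the sum in males on normal diet and 11.5% ± 5.28 in males on high fat (mean ± SD, n = 4). In females its share was 8.50% ± 4.62 on normal diet and 6.65% ± 3.48 on high fat, with overlapping ranges. Pdk2 was the largest share in 3 groups, at 58.3% in females on high fat, 67.7% in males on normal diet and 57.2% in males on high fat. In females on normal diet Pdk1 led with 49.1% ± 1.54, with Pdk2 next. The share of Pdk1 in the other groups was 34.3% ± 6.10 in females on high fat, 29.5% ± 7.89 in males on normal diet and 30.8% ± 6.15 in males on high fat. The sum itself was 93.0 ± 6.64 and 93.5 ± 11.3 TPM in females on normal and high fat diet, and 57.1 ± 4.85 and 71.4 ± 20.5 TPM in males. No test was run on these shares.

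**Figure D2:**
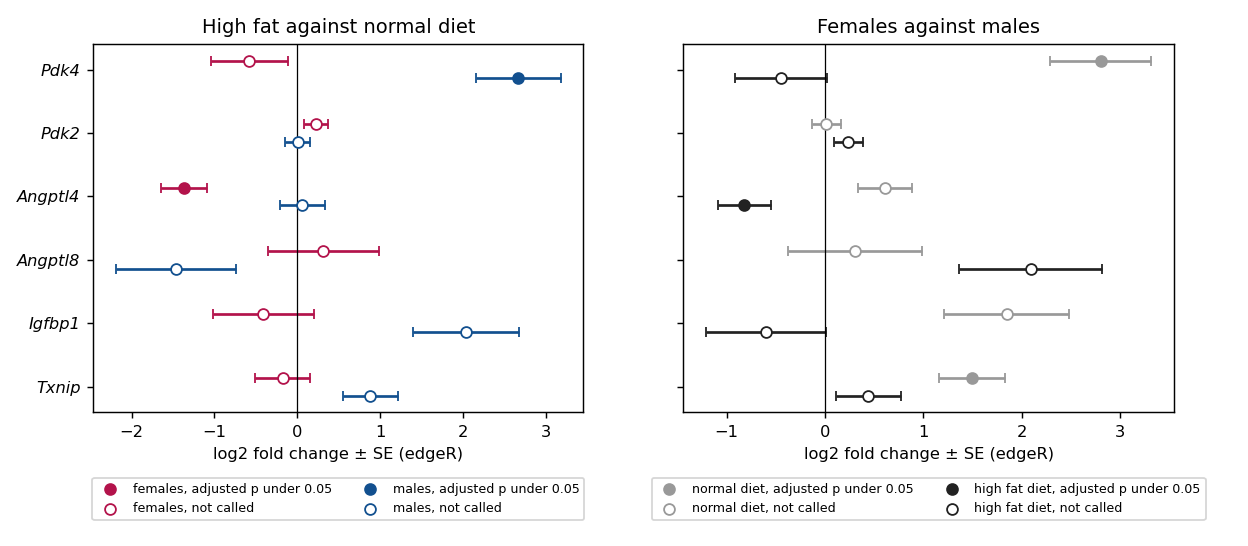
Log2 fold change ± SE from edgeR for each gene, for high fat over normal diet in each sex (left) and for females over males on each diet (right), with filled points where the adjusted p was under 0.05. In males Pdk4 lies at 2.67, Igfbp1 at 2.04 and Txnip at 0.88, while in females Angptl4 lies at -1.37.

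The third comparison asked whether the diet difference itself differed between the sexes, as the female minus the male log2 fold change. None of the 6 genes was called by edgeR, against 0.677% of all genes tested (0.264% above 0 and 0.413% below 0). At an unadjusted p under 0.05 the count was 4 of 6, against 13.0% of all genes, and DESeq2 called 2, Pdk4 and Angptl4, against 2.40%. The difference for Pdk4 was -3.25 ± 0.69, the largest of the 6 in size, with an adjusted p of 0.0570 by edgeR and 0.000564 by DESeq2. For Angptl4 it was -1.43 ± 0.38, with an adjusted p of 0.112 by edgeR and 0.00998 by DESeq2. Both lay below 0, Pdk4 through a rise in males and Angptl4 through a fall in females. Leaving out female normal diet replicate 1 gave adjusted p-values of 0.00787 for Pdk4 and 0.0393 for Angptl4 by edgeR. For Igfbp1 the difference was -2.45 ± 0.88 (adjusted p 0.262), and for Txnip -1.05 ± 0.47 (adjusted p 0.358). Angptl8 had a difference of 1.79 ± 0.99 (adjusted p 0.485) and Pdk2 one of 0.22 ± 0.21 (adjusted p 0.709). The 5 comparisons share libraries with each other and are not separate evidence.

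The fourth comparison set females against males on the normal diet. Of the 6 genes 2 were called, Pdk4 and Txnip, both higher in females, against 15.7% of all genes tested (7.03% higher and 8.68% lower in females). At an unadjusted p under 0.05 the count was 4 (30.9% of all genes), DESeq2 called 3 (19.6%), and the groups of 1 did not overlap (22.0%). Pdk4 was 6.98-fold higher in females, a log2 difference of 2.80 ± 0.52 with an adjusted p of 0.00316. Every female library lay above every male library, with female replicate 1 (5.78 CPM) the nearest to the males. Txnip was 2.82-fold higher in females, a log2 difference of 1.50 ± 0.34 with an adjusted p of 0.00895. For Txnip the groups overlapped through female replicate 1, which at 51.6 CPM lay below 2 of the male libraries. In a fit of the 2 groups alone the adjusted p of Txnip was 0.0596 at the same size, 1.51. Igfbp1 had a log2 difference of 1.85 ± 0.64 (adjusted p 0.0666) and Angptl4 one of 0.61 ± 0.27 (adjusted p 0.138). Without female normal diet replicate 1 these were 2.22 (adjusted p 0.0124) and 0.81 (adjusted p 0.0428). Pdk2 stood at 0.02 ± 0.15 (adjusted p 0.959). Angptl8 stood at 0.31 ± 0.68 (adjusted p 0.803) and changed sign, to -0.84, without female replicate 1. On normal diet the antisense gene Gm15441 was lower in females than in males, opposite to Txnip, by a log2 difference of -1.92 ± 0.61 (adjusted p 0.0430). Gm15441 was lower in females on high fat as well, by a log2 difference of -2.18 ± 0.62 (adjusted p 0.0208). There Txnip was not called (0.44, adjusted p 0.365). Several summed marker lists separated the sexes on normal diet without overlap. Stellate cell markers summed to 185 to 203 TPM in females and 122 to 140 TPM in males, sinusoidal endothelial markers to 56.7 to 64.6 and 39.5 to 44.2 TPM, and hepatocyte markers to 72551 to 85402 and 61756 to 71697 TPM. T and B cell markers summed to 1.27 to 1.82 TPM in females and 0.340 to 0.990 TPM in males. Most of the hepatocyte sum was Alb (53685 to 62840 and 40923 to 48749 TPM). Serpina1c went the other way without overlap (5126 to 5843 and 6925 to 8218 TPM), and the other hepatocyte markers overlapped. The endothelial sum was mostly Clec4g, and Stab2, Lyve1 and Ptprb overlapped. The stellate sum was mostly Dcn, and Reln and Des overlapped. The part of these sums in the sex differences of Pdk4 and Txnip was not tested.

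The fifth comparison set females against males on the high fat diet. Of the 6 genes 1 was called, Angptl4, which was lower in females, against 20.4% of all genes tested (8.84% higher and 11.6% lower in females). At an unadjusted p under 0.05 the count was 2 (35.1% of all genes), DESeq2 called 2 (23.7%), and the groups of 2 did not overlap (22.7%). On library totals the calls over all genes split into 2318 higher and 1048 lower, in place of 1306 and 1716, and their median was 0.12. The log2 difference of Angptl4 was -0.82 ± 0.27, 1.76-fold lower in females, with an adjusted p of 0.0454 and no overlap between the groups. This call was fragile: 12 of the 16 leave-one-out fits lost it, with values from -0.995 to -0.622 and adjusted p-values from 0.0240 to 0.130. Angptl8 did not overlap either, with all 4 female libraries above all 4 male libraries. Its log2 difference was 2.09 ± 0.72, or 4.26-fold, with an adjusted p of 0.0581 by edgeR and 0.0123 by DESeq2. Dock6, which spans Angptl8 on the other strand, was also higher in females on high fat, by 0.63 ± 0.19 (adjusted p 0.0244). With the use of strand not given, reads of the 2 genes may not be fully separated. Pdk4 (-0.44 ± 0.47, adjusted p 0.530), Igfbp1 (-0.60 ± 0.61, adjusted p 0.517), Txnip (0.44 ± 0.33, adjusted p 0.365) and Pdk2 (0.24 ± 0.15, adjusted p 0.265) were not called. The sex difference of Pdk4 on normal diet was thus not seen on high fat, and the test of that change is the interaction above, which edgeR did not call. On high fat the summed markers of 7 cell types did not overlap between the sexes. In females and males respectively they were 250 to 377 and 109 to 229 TPM for Kupffer cells, 66.4 to 75.4 and 42.8 to 53.6 TPM for sinusoidal endothelium, and 192 to 220 and 149 to 187 TPM for stellate cells. Hepatocyte markers summed to 70927 to 86985 TPM in females and 46707 to 60248 TPM in males, and T and B cell markers to 1.89 to 4.30 and 0.390 to 1.63 TPM. Adipocyte markers (3.06 to 6.26 and 11.68 to 62.94 TPM) and acinar markers (0.190 to 0.490 and 0.620 to 32.9 TPM) were lower in the female libraries. Most of the hepatocyte sum was Alb (52410 to 58597 and 25496 to 39208 TPM), and Ttr was also higher in females. Serpina1c (4967 to 5520 and 7600 to 8805 TPM) and Hnf4a went the other way without overlap. The endothelial sum was mostly Clec4g and the stellate sum mostly Dcn, while Stab2, Lyve1, Ptprb, Lrat and Reln overlapped. Among the adipocyte and acinar markers only Cidec, Cfd and Cela2a did not overlap. The part of these sums in the sex differences of Angptl4 and Angptl8 was not tested.

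Within groups, some of these genes varied together from library to library, and others did not. Female normal diet replicate 1 differed from its group's mean log2 CPM by -1.68 for Pdk4, -2.35 for Igfbp1, -0.78 for Angptl4 and -1.34 for Txnip, and by 1.94 for Angptl8. Females on high fat split likewise, with replicates 1 and 4 below and replicates 2 and 3 above the mean for Pdk4, Igfbp1, Angptl4 and, by less, Txnip. Male normal diet replicate 3 had the highest Angptl8 and the lowest Igfbp1 of its group, at deviations of 1.61 and -1.08. In that group Igfbp1 (0.81, 0.54, -1.08 and -0.27) and Txnip (-0.21, -0.42, 0.15 and 0.48) deviated in opposite directions in every library. Over the 16 libraries, the deviations of Pdk4 and Angptl4 from their group means correlated with a Pearson r of 0.875, and of 0.808 without female normal diet replicate 1. For Pdk4 and Igfbp1 the values were 0.787 and 0.494, and for Igfbp1 and Txnip 0.670 and 0.092, so the last relation rests on that library. Angptl8 ran opposite to Igfbp1, at -0.815 with that library and -0.605 without it. For Angptl8 and Txnip the values were -0.590 and -0.031, and for Pdk4 and Txnip 0.778 and 0.427. Pdk2 was only weakly related to Pdk4 (-0.368) and Igfbp1 (-0.071) over the 16 libraries. These correlations are descriptions over libraries that share a batch and a scaling, with no test.

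**Figure D3:**
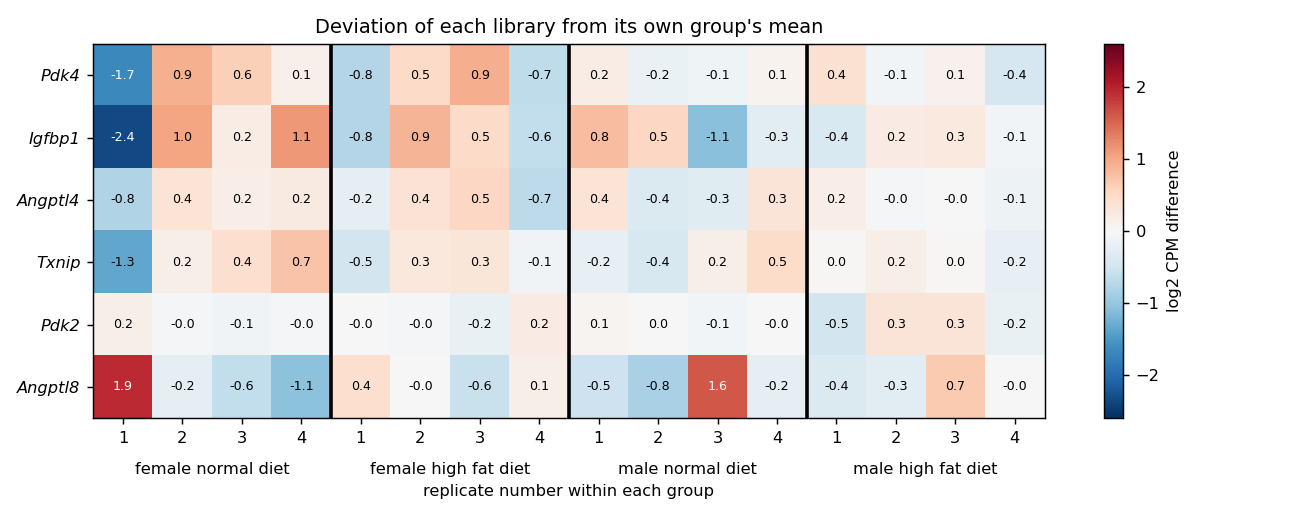
Each cell gives a library's log2 CPM minus the mean of its own group of 4, for the 6 genes (rows) in the 16 libraries (columns), with blue below and red above the group mean. Female normal diet replicate 1 lies at -2.35 for Igfbp1 and at 1.94 for Angptl8.

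The genes whose log2 CPM was most like each member's over the 16 libraries were sought by Pearson r, among 10649 genes whose log2 CPM averaged 1 or more. For Pdk4 they were Slc23a2 (r 0.91), a vitamin C transporter, Palmd (0.87) and Igfbp1 (0.86). For Igfbp1 they were Pdk4 (0.86), Slc23a2 (0.85) and G6pc (0.84), the glucose-6-phosphatase of glucose release. Txnip was most like Vnn1 (0.89), the PPARα target vanin-1, then 2610002M06Rik (0.86) and Dapk1 (0.85). Angptl4 was most like Mmadhc (0.89), Caln1 (0.89) and Elmod3 (0.88). Angptl8 was most like Nags (0.87), the enzyme that makes the activator of the urea cycle, Mid1ip1 (0.85), which promotes fatty acid synthesis, and Card10 (0.81). Pdk2 was most like Tcea3 (0.89), Gabarapl1 (0.87) and Abhd14b (0.86). These r values include differences between the groups. For deviations from the group means, r with the nearest gene was 0.77 for Pdk4, 0.79 for Igfbp1 and 0.74 for Txnip. It was 0.72 for Angptl4, 0.87 for Angptl8 and 0.89 for Pdk2. Over all pairs named it ran from 0.59 (Pdk4 and Palmd) to 0.93 (Angptl4 and Elmod3). By Spearman's rho none of the 3 nearest genes of Pdk4 stayed among its 3 nearest, and 1 of 3 did for each of Angptl4, Angptl8 and Igfbp1.

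The surrounding pathways were described through 7 lists with 71 further genes, of which 70 passed the filter. In females 4 of 70 rose and 11 fell on the high fat diet, against 5.74% and 5.76% of all genes tested, and the median log2 fold change of the 70 was -0.21, against 0.00 for all genes tested. In males 2 rose and 7 fell, against 6.03% and 5.36%, with a median of -0.04 against 0.01 for all genes. For the interaction 1 of 70 was called, against 0.677%, with 14 at an unadjusted p under 0.05, against 13.0%. Females exceeded males in 10 and fell below them in 3 on normal diet (7.03% and 8.68% of all genes), and in 10 and 6 on high fat (8.84% and 11.6%). The counts by list below are of few genes each and are read against the same shares: 5.74% higher and 5.76% lower in females, and 6.03% and 5.36% in males.

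Among the 10 further regulators of fasting, 3 fell in females on high fat and 2 fell in males. Foxo1, the transcription factor that insulin excludes from the nucleus, fell in females by 1.01 ± 0.15 on the log2 scale (adjusted p 0.000382). Its male value was in the same direction but not called (-0.30, adjusted p 0.204). Its interaction was not called either (-0.72, adjusted p 0.135). Cebpb, which helps drive gluconeogenic genes, fell in females by 1.15 ± 0.21 (adjusted p 0.00218). Its male value was 0.10 ± 0.20 (adjusted p 0.808), a pattern across the sexes like that of Angptl4, and its interaction was -1.25 ± 0.29 (adjusted p 0.0599). Klf15, a fasting-induced factor of amino acid breakdown, fell in both sexes, by 0.65 ± 0.16 in females (adjusted p 0.0152) and by 0.90 ± 0.16 in males (adjusted p 0.00173). The female value of Klf15 was -0.46 (adjusted p 0.0502) on library totals and -0.56 (adjusted p 0.0597) without female normal diet replicate 2. Among the 13 fasting targets, 4 fell in females, while in males 2 rose and 2 fell. Tat, which breaks down tyrosine, fell by 1.81 ± 0.19 in females (adjusted p 1.63e-05) and by 1.42 ± 0.19 in males (adjusted p 0.000125). Pck1, the gluconeogenic carboxykinase, fell by 1.34 ± 0.20 in females (adjusted p 0.000384) and by 0.73 ± 0.20 in males (adjusted p 0.0219). The male call of Pck1 was lost without male high fat diet replicate 2 or 4 or male normal diet replicate 1 or 2 (values from -0.72 to -0.65, adjusted p from 0.0522 to 0.0690). The targets that rose in males were Vnn1 by 1.17 ± 0.27 (adjusted p 0.0109) and Fgf21, a fasting hormone, by 2.43 ± 0.70 (adjusted p 0.0377). So Pdk4 rose in the male livers in which Tat fell.

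Among the 8 further genes of the lipoprotein lipase axis, 1 rose in females and none was called in males. The 1 was Lpl, the lipase that Angptl4 inhibits, which stood at 11.5, 16.8, 12.0 and 8.31 CPM in females on normal diet and 58.8, 29.9, 32.6 and 51.1 CPM on high fat. Its female log2 fold change was 1.83 ± 0.36 (adjusted p 0.00625), opposite in direction to that of Angptl4, and in males it was -0.21 ± 0.35 (adjusted p 0.750). Lipc, the hepatic lipase, was higher in females on both diets, by 0.82 ± 0.15 (adjusted p 0.00180) and 0.83 ± 0.15 (adjusted p 0.00136). So was Apoc3, an apolipoprotein that slows triglyceride clearance, by 0.88 ± 0.17 (adjusted p 0.00228) and 0.59 ± 0.17 (adjusted p 0.0201). The latter was lost without female high fat diet replicate 1 or male high fat diet replicate 4 (adjusted p up to 0.0653).

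Among the 10 further genes of glucose sensing and thioredoxin, 2 rose in females and none was called in males. These were the arrestin-like relatives of Txnip. Arrdc4, itself a ChREBP target, rose by 1.04 ± 0.23 in females (adjusted p 0.00818), against -0.16 ± 0.23 in males (adjusted p 0.715). Arrdc3 stood at 78.1, 76.7, 104 and 74.3 CPM in females on normal diet and 313, 349, 238 and 382 CPM on high fat. Its female log2 fold change was 1.95 ± 0.39 (adjusted p 0.00661). In males it stood at 40.0, 77.7, 112 and 231 CPM on normal diet and 65.6, 84.5, 84.6 and 60.4 CPM on high fat, and was not called (-0.64 ± 0.38, adjusted p 0.291). Its interaction was 2.59 ± 0.54 (adjusted p 0.0449), above 0 where that of Txnip was below 0. That call did not hold in 12 of the 16 leave-one-out fits, with values from 2.02 to 2.90. Txnrd1, the thioredoxin reductase, was lower in females on normal diet by a log2 difference of -0.37 ± 0.08 (adjusted p 0.00685). On high fat its difference was -0.27 (adjusted p 0.0298), a call lost in 10 of the 16 leave-one-out fits.

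Among the 12 further genes of pyruvate dehydrogenase control, 2 fell in females and 1 fell in males. Pdhx, the subunit that anchors the complex's E3 component, fell in both sexes, by 0.37 ± 0.08 in females (adjusted p 0.00553) and by 0.39 ± 0.08 in males (adjusted p 0.00323). On library totals the female value was -0.18 (adjusted p 0.102). Mpc1 and Mpc2, the subunits of the mitochondrial pyruvate carrier, were higher in females than in males on normal diet, by 1.18 ± 0.20 (adjusted p 0.000673) and 1.02 ± 0.16 (adjusted p 0.000323). On high fat they were also higher in females, by 0.64 (adjusted p 0.0277) and 0.85 (adjusted p 0.00135). The high fat call of Mpc1 was lost in 4 of 16 fits without 1 library. Among the 9 further genes of the IGF axis, 1 rose in females and 1 fell in males. Igfbp2 fell in males by 1.11 ± 0.24 (adjusted p 0.00679), where the value of Igfbp1 was positive. Its female value was -0.74 ± 0.24 (adjusted p 0.0531), just over the threshold. Igfals, which holds IGF complexes in the blood, rose in females by 0.37 ± 0.11 (adjusted p 0.0407), a call lost in 6 of 16 fits without 1 library. On high fat Igfals was higher in females than in males by 0.71 (adjusted p 0.000385). That call was kept in every such fit (adjusted p up to 0.00118). Igfbp7 was higher in females on normal diet by 0.39 ± 0.12 (adjusted p 0.0316), a call lost in 5 of 16 such fits. Of the 8 tested lipogenic genes that insulin induces, 2 fell in females and 1 in males, with list medians of -0.64 and -0.48. Acly, which makes cytosolic acetyl-CoA, fell in females by 0.59 ± 0.15 (adjusted p 0.0165), and Me1, a source of NADPH, by 0.89 ± 0.26 in females (adjusted p 0.0377) and by 0.86 ± 0.26 in males (adjusted p 0.0440). On library totals neither was called in either sex. In leave-one-out fits Me1 lost its call in 6 of 16 in females and 8 of 16 in males, with adjusted p up to 0.105 and 0.113, and Acly lost its female call without female normal diet replicate 3 (adjusted p 0.0569). Acaca was higher in females on normal diet by 0.81 ± 0.24 (adjusted p 0.0337), a call lost in 6 of 16 fits without 1 library (adjusted p up to 0.101).

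**Figure D4:**
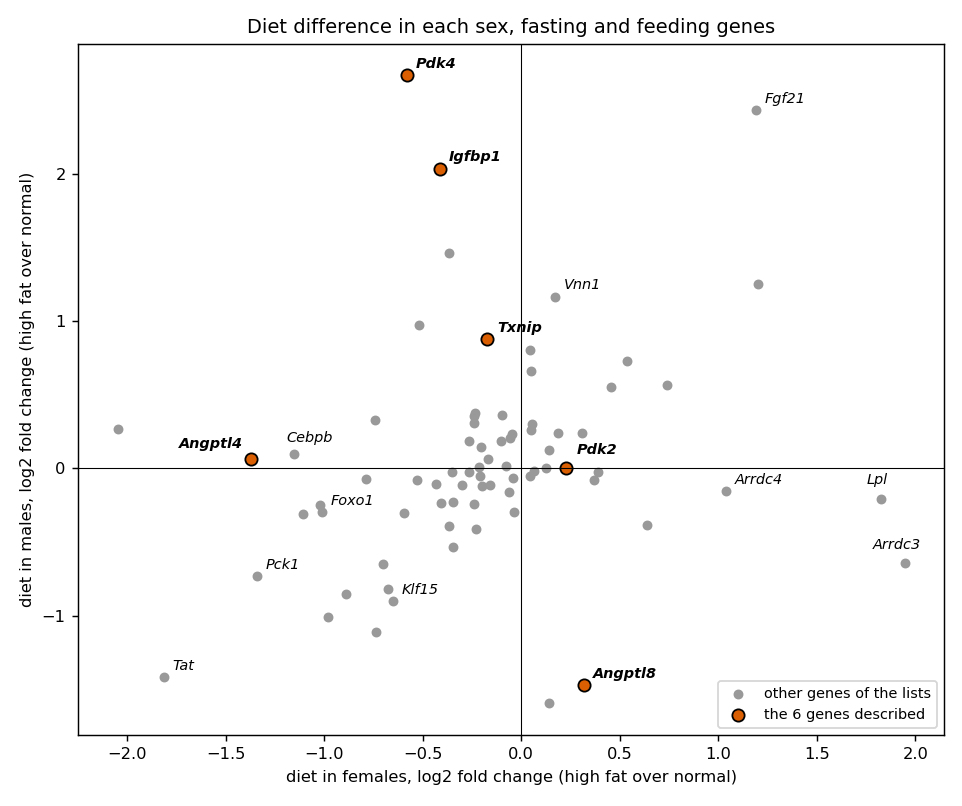
Log2 fold change of high fat over normal diet in females (x axis) and in males (y axis) for the 6 genes described (orange) and the 70 other genes of the lists (grey), with lines at 0. Pdk4 lies at -0.58 in females and 2.67 in males and Angptl4 at -1.37 and 0.06, while Tat, at -1.81 and -1.42, lies low on both axes.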

How the data were processed

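Liver RNA was sequenced in 16 mouse libraries. Per the labels, RNA was extracted with RNeasy and made into libraries with the NEBNext Ultra kit for NovaSeq sequencing. Per the submitters' processing notes, reads were processed with STAR and RSEM on GRCm39, with versions and settings not given in the sources used here. The authors deposited expected counts per gene, 4.89% of them not whole, and TPM per gene. The members and the gene lists were chosen with earlier results of these data known.

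Symbols came from a table of gene identifiers. Expected counts were rounded, filtered with filterByExpr (14781 of 78317 genes kept, with 99.94% of counts), scaled by TMM and fitted with edgeR 4.0.16 (robust quasi-likelihood, 1 mean per group, 12 residual degrees of freedom). P-values were two-sided and adjusted by Benjamini-Hochberg over all genes, with a threshold of 0.05, and SEs were derived from the F statistic. Log2 CPM used a prior count of 2. Alternatives were DESeq2 1.42.0, library totals, no filter, limma 3.58.1 on log2(TPM + 1) and log2(TPM + 0.1), fits of 2 groups, a replicate block, averaging of 2 alike libraries and leaving out libraries. The scripts were tested on simulated data. Outside the 6 genes, values were given for the 3 genes per list with the smallest p in any comparison and the 3 genes most like each member, and other genes of the lists were named where called. Figures were drawn with matplotlib.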

Additional observations from a re-analysis of the deposited data

Results flagged for a closer look

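In 4 of 108 groups of 4 libraries, over 27 genes, 1 library lay far from the other 3 by Dixon's ratio at the 95% level. Chance alone gives about 1 in 20 such groups, or 5.4. Angptl8 stood at 25.2 CPM in female normal diet replicate 1, with the other 3 libraries between 3.06 and 5.52 CPM. Angptl8 also stood at 18.4 CPM in male normal diet replicate 3, with the others between 3.31 and 5.09 CPM. Lpl stood at 58.3 CPM in male normal diet replicate 2, with the others between 19.0 and 24.8 CPM. Arrdc3 stood at 103.5 CPM in female normal diet replicate 3, with the others between 74.3 and 78.1 CPM. The diet difference of Arrdc3 differed between the sexes by 2.59 ± 0.54 on the log2 scale (female minus male, adjusted p 0.0449 by edgeR).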

How the results depend on the processing

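No result changed direction past the threshold under any alternative. In males, 3 genes were called by DESeq2, 2 on library totals, 2 on log2(TPM + 1), 3 in the fit of 2 groups and 1 to 3 without 1 library. Igfbp1 was then called at 2.03 (DESeq2), 2.13 (library totals), 2.16 (log2(TPM + 1)) and 2.03 (2 groups), with 1.79 to 2.32 without 1 library, and Txnip at 0.87 (DESeq2) and 0.88 (2 groups), with 0.75 to 1.06. In females 2 were called on log2(TPM + 1) and on log2(TPM + 0.1), where Pdk2 stood at 0.46 in both (adjusted p 0.0403 and 0.0418). For the interaction DESeq2 called 2 and library totals 1, with 0 to 2 without 1 library. Pdk4 was called at -3.23 (DESeq2) and -3.17 (library totals), with -3.61 to -2.93 without 1 library, and Angptl4 at -1.42 (DESeq2), with -1.61 to -1.24.

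On normal diet 1 gene was called between the sexes in the fit of 2 groups, where Txnip stood at 1.51, and 2 to 4 without 1 library. Igfbp1 was called by DESeq2 at 1.85, with 1.54 to 2.22 without 1 library, and Angptl4 ran from 0.50 to 0.81. On high fat 2 genes were called by DESeq2, by both limma fits and in the fit of 2 groups, none without the filter, with the replicate block or with 2 libraries averaged, and 0 to 2 without 1 library. Angptl4 missed the threshold at -0.70 (library totals), -0.80 (no filter), -0.69 (log2(TPM + 1)), -0.72 (log2(TPM + 0.1)), -0.84 (replicate block) and -0.82 (averaged), and ran from -0.995 to -0.622 without 1 library. Angptl8 was called at 2.11 (DESeq2), 2.23 (library totals), 2.09 and 2.26 (limma) and 2.12 (2 groups), with 1.93 to 2.38. Pdk2 was called there at 0.43 and 0.44 (limma). The cause of these changes was not tested.

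Female normal diet replicate 1 and male normal diet replicate 3 were left out together after their Angptl8 values had been seen, so the calls this gives are circular for Angptl8: 1.49 in females, 2.09 for the interaction and 2.12 between the sexes on high fat. Without 1 library Angptl8 ran from 0.0154 to 1.49 in females and from 0.91 to 2.96 for the interaction. That fit called 2 genes in females, 3 in males (Igfbp1 at 1.78 and Txnip at 0.91), 2 for the interaction (Pdk4 at -3.51) and 2 on high fat, and Igfbp1 stood at 1.96 between the sexes on normal diet. Of the 70 list genes, the interaction called 4 by DESeq2, 0 without the filter, in both limma fits, with the replicate block, with 2 libraries averaged and without those 2, and 0 to 2 without 1 library. On normal diet DESeq2 called 20, no filter 8 and leaving out both 7, against 13. Without 1 library the lists gave 5 to 12 calls in males and 8 to 17 on high fat. The 924 results of the further genes named with values include those not called in the main fit. Under another setting 62 of them lost a call and 24 gained one. In fits without 1 library, 71 results lost a call and 19 gained one.

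Over all genes DESeq2 called 341 in the interaction, against 100. The 2 averaged libraries, male high fat diet replicates 2 and 3, were chosen because an earlier report found them alike. Their root mean square difference was 0.448, the lowest of the 6 pairs of that group (0.448 to 0.776). The lowest of any other group was 0.475. Same-numbered libraries did not vary together (mean r of deviations -0.022 to 0.088), so the numbers were not taken as pairs; 5 of 16 correlated best with their own number. On library totals Pdk2 stood at 63.3 CPM in males on normal diet, against 67.1. By Spearman's rho 0, 1, 1 and 1 of the 3 nearest genes stayed for Pdk4, Angptl4, Angptl8 and Igfbp1. With 4 libraries a group, members could differ by over 2-fold without a call. The SEs of Angptl8 and Igfbp1 were over 0.6 in the diet and sex comparisons. The interactions of Pdk4 (-3.25 ± 0.69) and Angptl4 (-1.43 ± 0.38) were not called by edgeR.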
